A study of Sus scrofa with 12 samples.

Results

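The genes described here are 10 genes of the mesothelium and the ovarian surface, named PRG4, ANXA8, TGM3, MSLN, UPK3B, KRT7, LRRN4, BNC1, CALB2 and WT1. They were found in the gene table by their exact symbols, and 9 of the 10 have a row among its 29884 genes. No row is named MSLN, so no value is given under that symbol, and LOC100524016, which the reference names as mesothelin, was looked at in its place. PRG4, ANXA8 and TGM3 were chosen by their measured values, because each was lower in every LLS ovary than in every SLS ovary, and so the difference between the groups is given for them as a description, with no test. The other 7 were named because they mark mesothelium, and 6 of these have a row.

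The samples were left ovaries of sows (Sus scrofa) slaughtered 4 days after delivery number 4. The SLS ovaries (small litter size, 8.48 ± 0.53 piglets per litter) were ZD2, ZD3 and ZD12, and the LLS ovaries (large litter size, 16.19 ± 0.43 piglets per litter) were ZD5, ZD7 and ZD8, with n = 3 in each group. The groups are those of the sample labels and the litter sizes those of the series' design text, and neither gives a treatment, breed or age. Ribosomal RNA was removed from the total RNA of each ovary and 1 library was sequenced, at a depth of 32272803 to 60903268 reads on genes. Whether RNA came from the whole ovary or from a piece of it is not given in the sources used here. Levels are in FPKM, fragments per transcript length and library size, which allows levels of different genes to be compared per length.

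One ovary stood apart from the rest. In ZD8, an LLS ovary, the levels of 6 luteal marker genes summed to 123 FPKM, where the remaining 5 ovaries reached 9167 to 12190 FPKM, while the sum of the theca markers CYP17A1 and INSL3 was 415 FPKM in ZD8 and at most 74.4 FPKM in the others. The sum of 6 oocyte markers was 122 FPKM in ZD8 and at most 22.4 FPKM in the others. ZD8 was also the library with the fewest reads. Results that rest on ZD8 are therefore given with and without it.

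Mesothelium is the single layer of flat epithelial cells that lines the body cavities and covers the organs in them, and the ovarian surface epithelium is its continuation over the ovary. These cells carry keratins together with genes of mesodermal origin such as WT1, and they keep the surface smooth and lubricated. On the ovary the layer is opened at each ovulation and closed again by its own growth. It makes up a small share of a whole ovary, and WT1 is also transcribed in granulosa cells and in ovarian stroma, so WT1 alone does not mark the surface. In RNA of a mixed tissue, fewer cells of a type and less RNA per cell cannot be told apart.

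The 300 bases around the annotated starts of the 3 genes chosen as lower in LLS ovaries (250 bases before and 50 after the start) were read from the Sscrofa11.1 reference, to show what these genes have in common beside their levels. They are PRG4 on chr9:127463625-127463924 (plus strand), ANXA8 on chr14:88340667-88340966 (minus strand) and TGM3 on chr17:33236016-33236315 (minus strand), each printed 5′ to 3′ with motif matches in capitals.
PRG4: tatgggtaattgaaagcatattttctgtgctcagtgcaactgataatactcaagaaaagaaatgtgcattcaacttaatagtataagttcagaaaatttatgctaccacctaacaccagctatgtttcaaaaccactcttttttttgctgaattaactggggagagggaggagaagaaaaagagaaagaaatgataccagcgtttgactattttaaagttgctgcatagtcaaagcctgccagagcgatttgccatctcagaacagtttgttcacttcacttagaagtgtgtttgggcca
ANXA8: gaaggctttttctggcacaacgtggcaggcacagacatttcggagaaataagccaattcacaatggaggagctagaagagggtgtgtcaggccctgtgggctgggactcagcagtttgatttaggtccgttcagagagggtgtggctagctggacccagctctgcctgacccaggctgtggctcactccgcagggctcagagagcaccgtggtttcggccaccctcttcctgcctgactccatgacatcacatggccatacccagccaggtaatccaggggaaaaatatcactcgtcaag
TGM3: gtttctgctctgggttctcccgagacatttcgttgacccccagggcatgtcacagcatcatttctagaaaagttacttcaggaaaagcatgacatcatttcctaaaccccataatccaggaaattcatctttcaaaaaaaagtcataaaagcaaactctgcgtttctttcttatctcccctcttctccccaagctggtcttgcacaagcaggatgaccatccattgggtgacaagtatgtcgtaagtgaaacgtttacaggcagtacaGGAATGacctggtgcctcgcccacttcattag
Searched on both strands were TATAAA (the site of the TATA-binding protein), GGGCGG (GC box), GGAATG (the TEAD motif) and GCGTGGGNG (the motif of WT1 and EGR). The windows of PRG4 and ANXA8 held none of them. The window of TGM3 held GGAATG on the plus strand of the gene at bases 19 to 24 after the start, a motif found in 11.8% of 19534 windows of coding genes. The share of G and C was 37.3% for PRG4, 55.7% for ANXA8 and 44.7% for TGM3, against a median of 58.7% over all the windows. The 3 windows therefore shared none of the 4 searched motifs.

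Among the 6 mesothelial markers the window of CALB2 held the most different motifs. It lies on chr6:14391970-14392269 (plus strand) and is printed because it holds the only match to the WT1 and EGR motif among the members.
CALB2: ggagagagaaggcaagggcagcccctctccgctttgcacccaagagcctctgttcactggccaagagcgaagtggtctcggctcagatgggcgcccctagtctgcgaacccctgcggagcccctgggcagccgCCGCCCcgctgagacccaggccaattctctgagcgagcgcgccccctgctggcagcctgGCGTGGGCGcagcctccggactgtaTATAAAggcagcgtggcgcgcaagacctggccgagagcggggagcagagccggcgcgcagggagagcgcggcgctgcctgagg
From left to right the capitals mark GGGCGG on the minus strand at bases -117 to -112, GCGTGGGNG at -58 to -50 and TATAAA at -33 to -28, counted from the annotated start. GCGTGGGNG was found in 2.84% of all windows, TATAAA in 10.9% and GGGCGG in 50.6%. The window of WT1 held 1 match to GGGCGG, that of BNC1 held 6 with a G and C share of 83.3%, and those of UPK3B, KRT7 and LRRN4 held none of the 4 motifs. A match is a description of the letters and does not show binding.

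PRG4 encodes lubricin, a secreted proteoglycan that lubricates joint cartilage and serosal surfaces. Its level in the SLS ovaries was 1.0 FPKM in ZD2, 0.583 in ZD3 and 3.67 in ZD12, and in the LLS ovaries 0.227 in ZD5, 0.113 in ZD7 and 0.101 in ZD8. ZD12 was well above all others, and the lowest SLS ovary was 2.57 times the highest LLS ovary. The values rest on 166 to 1069 reads in the SLS libraries and on 18 to 72 in the LLS libraries. The mean was 1.75 ± 1.67 FPKM (SD, n = 3) in SLS and 0.147 ± 0.0693 FPKM (SD, n = 3) in LLS ovaries, a ratio of 11.9. ZD12 carried much of it, since the ratio was 5.39 without ZD12 and 10.3 without ZD8. PRG4 lies on chr9:127463875-127481770 and overlaps TPR, a gene of the nuclear pore, on the other strand. TPR was at 16.0, 13.1 and 23.0 FPKM in the LLS ovaries and reached 22.1 FPKM in the SLS ovary ZD3 and 14.3 FPKM in ZD12, so the groups overlapped there.

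ANXA8 encodes annexin A8, a calcium-dependent binder of membrane phospholipids. It was at 4.45 FPKM in ZD2, 0.967 in ZD3 and 6.78 in ZD12, against 0.555 in ZD5, 0.228 in ZD7 and 0.415 in ZD8. As for PRG4, ZD12 was highest and ZD3 the lowest of the SLS ovaries. ANXA8 was the gene just inside the choice of members, since ZD3 was only 1.74 times ZD5. The 95% counting intervals of these neighbours (exact Poisson, 97 and 62 reads) were 0.784 to 1.18 FPKM and 0.425 to 0.711 FPKM. They cover counting error only. The mean was 4.06 ± 2.92 FPKM (SD, n = 3) in SLS and 0.399 ± 0.164 FPKM (SD, n = 3) in LLS ovaries, a ratio of 10.2, which was 6.78 without ZD12. ANXA8 lies on chr14:88319209-88340716 and overlaps no annotated gene.

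TGM3 encodes transglutaminase 3, which cross-links proteins and is best known from the outer layers of the epidermis and the hair follicle. It was at 1.15, 1.10 and 0.875 FPKM in ZD2, ZD3 and ZD12 and at 0.0942, 0.0773 and 0.0336 FPKM in ZD5, ZD7 and ZD8. In the SLS ovaries these were the tightest of the chosen values, and the lowest SLS ovary was 9.29 times the highest LLS ovary. The SLS values rest on 128 to 194 reads and the LLS values on 15, 13 and 3 reads. The mean was 1.04 ± 0.147 FPKM (SD, n = 3) in SLS and 0.0684 ± 0.0313 FPKM (SD, n = 3) in LLS ovaries, a ratio of 15.2, which was 12.2 without ZD8. TGM3 lies on chr17:33191901-33236065, and its neighbour TGM6, 49353 bases away, was at 0 in all 6 ovaries.

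The 3 chosen genes did not order the SLS ovaries alike. PRG4 and ANXA8 both ran from ZD12 over ZD2 to ZD3, whereas TGM3 was highest in ZD2 and lowest in ZD12. The ratio of ANXA8 to PRG4 stayed between 1.66 and 4.43 over the 6 ovaries. In all, 567 of the 23564 genes above 0 FPKM in at least 1 library were lower in every LLS ovary than in every SLS ovary, or 2.41%, and the 3 chosen genes are among these by construction. On the scale of log2(FPKM + 1) the differences, LLS minus SLS, were -1.10 for PRG4, -1.65 for ANXA8 and -0.93 for TGM3, which understates the change of genes near 1 FPKM. None of the 3 entered the limma fit across genes, which needed 1 FPKM in at least 3 libraries, because each reached 1 FPKM in only 2.

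**Figure D1:**
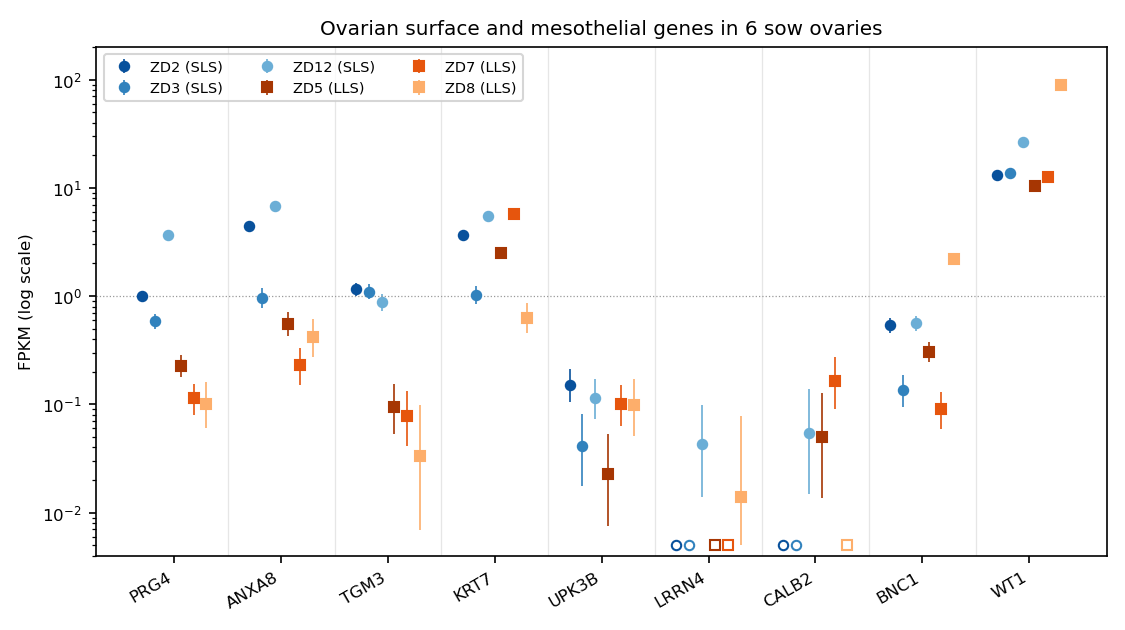
Level of each of the 9 genes in each of the 6 ovaries (FPKM, log scale), with circles for SLS and squares for LLS ovaries, bars for the 95% counting interval, empty symbols at the bottom for 0 reads and a dotted line at 1 FPKM. PRG4, ANXA8 and TGM3 separate the groups because they were chosen for it, while the 6 mesothelial markers overlap and WT1 is highest in ZD8 at 88.6 FPKM.

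The 6 mesothelial markers were not chosen by this contrast, and the groups overlapped in each of them. Since only 2.41% of all genes were lower without overlap, this count says little about the markers. KRT7, a keratin of simple epithelia, was at 3.68, 1.03 and 5.50 FPKM in ZD2, ZD3 and ZD12 and at 2.48, 5.76 and 0.634 FPKM in ZD5, ZD7 and ZD8. The highest and the lowest ovary were both LLS ovaries. The mean was 3.40 ± 2.24 FPKM (SD, n = 3) in SLS and 2.96 ± 2.60 FPKM (SD, n = 3) in LLS ovaries. The difference of log2(FPKM + 1) was -0.23 with a standard error of 0.59 (adjusted p = 0.999, limma), and an exact two-sided permutation test gave p = 0.8, where 0.1 is the smallest value that 3 against 3 ovaries allow. Without ZD8 the difference was 0.29 with a standard error of 0.47, and it also turned positive, at 0.13, without the SLS ovary ZD12. KRT7 lies on chr5:17553192-17570582 and is annotated there as a non-coding transcript.

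BNC1 encodes basonuclin 1, a zinc finger protein of epithelial and germ cells. It was at 0.535, 0.136 and 0.560 FPKM in ZD2, ZD3 and ZD12 and at 0.305, 0.0897 and 2.21 FPKM in ZD5, ZD7 and ZD8. ZD8 was 7.26 times the median of the other ovaries, and the lowest value was also an LLS ovary. The difference of log2(FPKM + 1) was 0.25 with ZD8 and -0.23 without it, and the exact two-sided permutation test with all 6 ovaries gave p = 0.9. BNC1 overlaps the non-coding gene LOC106504434 on the other strand, which was at 0.0246 to 0.204 FPKM.

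UPK3B, LRRN4 and CALB2 were at low levels, with at most 35 reads in any library. UPK3B encodes uroplakin 3B, a membrane protein of urothelium that is also a mesothelial marker, and was at 0.152, 0.0409 and 0.115 FPKM in the SLS ovaries and 0.0230, 0.0999 and 0.0983 FPKM in the LLS ovaries, on 5 to 35 reads. The groups overlapped (exact two-sided permutation test, p = 0.5). UPK3B overlaps DTX2 on the same strand, and DTX2 was at 1.18 to 3.43 FPKM. Whether reads of DTX2 were counted for UPK3B was not tested. LRRN4, a leucine-rich repeat membrane protein, had 5 reads in ZD12, 1 in ZD8 and 0 in the other 4 ovaries (exact p = 1). CALB2, the calcium-binding protein calretinin, had 4 reads in each of ZD12 and ZD5, 14 in ZD7 and 0 in ZD2, ZD3 and ZD8 (exact p = 0.7). Depending on the library, 3 reads were worth 0.0222 to 0.0419 FPKM for LRRN4 and 0.0352 to 0.0664 FPKM for CALB2. The smallest difference between the groups that this depth could show was not tested. The reads of UPK3B, LRRN4 and CALB2 were so few that the presence of mesothelium in these samples is not shown by them.

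WT1, the zinc finger transcription factor of the gonadal ridge and the mesothelium, was the most abundant of the 9 genes in every ovary. It was at 13.1, 13.6 and 26.6 FPKM in ZD2, ZD3 and ZD12 and at 10.4, 12.6 and 88.6 FPKM in ZD5, ZD7 and ZD8. ZD8 was 6.75 times the median of the others, whereas ZD5 and ZD7 were below every SLS ovary. The mean was 17.8 ± 7.65 FPKM (SD, n = 3) in SLS and 37.2 ± 44.5 FPKM (SD, n = 3) in LLS ovaries. The difference of log2(FPKM + 1) was 0.43 with a standard error of 0.74 (adjusted p = 0.999, limma). Without ZD8 it turned to -0.52 with a standard error of 0.32 (adjusted p = 0.9996, limma). The exact two-sided permutation test with all 6 ovaries gave p = 1.

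WT1 and KRT7 were the only members in the fit across genes, and neither was called at an adjusted p under 0.05 with a log2 difference over 1. The same limma fit called 0 of 12260 genes, or 0%, with 216 genes at an unadjusted p under 0.05 and a smallest adjusted p of 0.860, so that an uncalled marker is no result about the marker. In a fit without the filter on low values the adjusted p was 0.993 for each of the 6 markers (limma). The limma p-values set the group difference against the spread within the groups of these 6 ovaries, which limma shares in part across genes.

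The order of WT1 over the ovaries was compared with genes of other ovarian cells. FOXL2, INSL3 and TCF21 were picked after their values were seen. FOXL2, a transcription factor of granulosa cells, was at 13.8, 7.25 and 30.6 FPKM in the SLS and 6.11, 6.69 and 37.8 FPKM in the LLS ovaries. INSL3, a theca cell hormone, was at 6.0, 4.82 and 45.1 FPKM in the SLS and 11.6, 2.28 and 298 FPKM in the LLS ovaries. TCF21, a transcription factor of stromal fibroblasts, was at 14.5, 8.23 and 18.2 FPKM in the SLS and 6.58, 10.7 and 52.6 FPKM in the LLS ovaries. These 3 genes share with WT1 that ZD8 was highest and ZD12 next, which their pick fixes. Other genes of the granulosa and stroma lists were split. DCN, a stromal proteoglycan, was highest in ZD8 at 1854 FPKM. INHA, an inhibin subunit of granulosa cells, was lowest in ZD8 at 66.4 FPKM, as was the collagen gene COL1A1 at 377 FPKM. The sum of the theca markers was likewise highest in ZD8 (415 FPKM) and next in ZD12 (74.4 FPKM), though in ZD5, where WT1 was lowest, it was above that of ZD2 and ZD3. The sum of 6 oocyte markers, at 122 FPKM in ZD8 and 22.4 FPKM in ZD12, and that of 9 gonadal partners and targets of WT1, at 161 and 130 FPKM, were also highest in these ovaries. The granulosa and stroma sums had other orders: 6 granulosa markers summed to 387 to 772 FPKM in the SLS ovaries, 177 to 300 in ZD5 and ZD7 and 130 in ZD8, and 7 stroma markers to 3786 to 9601, 4066 to 4782 and 3425 FPKM. The part of these cell types in the level of WT1 was not tested.

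WT1 lies on chr2:28411467-28456007 and overlaps the non-coding gene LOC102161978 on the other strand. LOC102161978 was at 5.71, 7.83 and 15.6 FPKM in the SLS and 5.91, 6.25 and 62.8 FPKM in the LLS ovaries, highest in ZD8 and next in ZD12 like WT1. The ratio of WT1 to it stayed between 1.41 and 2.3. The libraries kept the strand of the RNA, but whether reads were counted by strand is not given in the sources used here, so that reads of the 2 genes cannot be told apart.

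**Figure D2:**
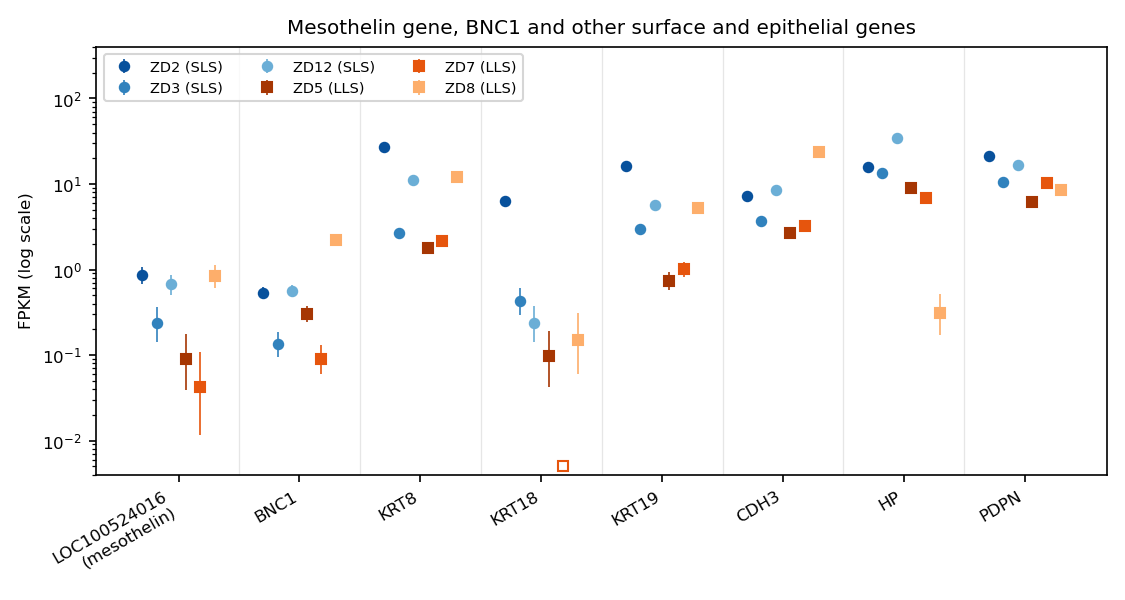
Levels of the mesothelin gene LOC100524016, BNC1 and 6 other surface genes in the 6 ovaries (FPKM, log scale), with circles for SLS and squares for LLS ovaries, bars for the 95% counting interval and an empty symbol for 0 reads. LOC100524016, KRT8 and KRT19 are lower in ZD5 and ZD7 than in every SLS ovary, whereas ZD8 lies among the SLS ovaries.

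LOC100524016, annotated as mesothelin, a surface protein of mesothelial cells, was added after the table was seen. It lies on chr3:41025892-41029302. It was at 0.855, 0.236 and 0.668 FPKM in ZD2, ZD3 and ZD12 and at 0.0893, 0.0422 and 0.837 FPKM in ZD5, ZD7 and ZD8. ZD5 and ZD7 were below every SLS ovary, and ZD8 was the next to highest of all. The values rest on 19 to 81 reads in the SLS libraries and 8, 4 and 42 in the LLS libraries. The difference of log2(FPKM + 1) was -0.29, and -0.55 without ZD8, and the exact two-sided permutation test with all 6 ovaries gave p = 0.3. With any 1 ovary left out the difference ran from -0.55 to -0.15. With 0.1 in place of 1 added to the FPKM it was -1.10. The ratio of SLS to LLS means was 1.82, and 8.92 without ZD8.

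Other genes of the mesothelium and the ovarian surface were taken from a list of 27, of which 25 have a row and 18 entered the limma fit. None of the 18 was called, and 3 had an unadjusted p under 0.05 (limma), against 216 of all 12260 genes. A lower mean of log2(FPKM + 1) in LLS ovaries was seen in 14 of the 18 and in 5814 of the 12260. Without ZD8 it was seen in 13 of the 18 and in 8088 of the 12260. The median difference was -0.21 against 0.02 over all 12260 genes, and without ZD8 it was -0.48 against -0.10. PDPN and HP were lower in every LLS ovary and ALDH1A1 was higher, where 389 of the 12260 genes (3.17%) were lower and 239 (1.95%) higher without overlap. Without ZD8, KRT8, KRT19, PDPN, CDH3, HP and NR2F2 were lower in ZD5 and ZD7 than in every SLS ovary, where this held for 1429 of the 12260 genes (11.7%), and WT1 is among these. The most abundant of the 18 overlapped between the groups: complement C3 was at 81.6 to 238 FPKM in SLS and 57.6 to 219 FPKM in LLS ovaries, the membrane linker EZR at 116 to 138 and 81.7 to 155 FPKM, the transcription factor GATA6 at 55.8 to 60.8 and 34.1 to 58.7 FPKM, and the nuclear receptor NR2F2 at 34.9 to 47.9 and 29.3 to 80.3 FPKM. Smooth muscle markers were set beside the surface list, and 4 of 5 had a lower mean of log2(FPKM + 1) in LLS ovaries. MYH11 went the other way with all 6 ovaries, at a log2 difference of 0.28. All 5 entered the fit and none was called, and their median difference was -0.85, or -1.21 without ZD8, when ACTA2, MYH11, CNN1 and DES were lower in ZD5 and ZD7 than in every SLS ovary. They summed to 646 to 1796 FPKM in the SLS ovaries, 314 to 668 in ZD5 and ZD7 and 914 in ZD8, and CNN1 ordered the 6 ovaries as KRT8 did. Their part in the surface genes' levels was not tested.

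KRT8 and KRT19, keratins of simple epithelium, resembled the mesothelin gene in their order. KRT8 was at 27.4, 2.67 and 11.2 FPKM in the SLS and 1.77, 2.15 and 12.1 FPKM in the LLS ovaries. KRT19 was at 16.4, 2.98 and 5.67 FPKM in the SLS and 0.735, 1.01 and 5.21 FPKM in the LLS ovaries. Both were highest in ZD2 and low in ZD5 and ZD7, and ZD8 lay among the SLS ovaries. Their log2 differences were -1.16 and -1.47 (adjusted p = 0.999 for both, limma), and -1.88 and -2.05 without ZD8 (adjusted p = 0.573 and 0.243, limma). KRT18 and KRT7 did not follow this order. KRT18, which did not enter the fit, had 551 reads in ZD2 and at most 32 in any other ovary and was lower in every LLS ovary, ZD8 included, while KRT7 was highest in ZD7.

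Podoplanin (PDPN), a mucin-like protein of mesothelium and lymphatic vessels, was at 21.2, 10.5 and 16.7 FPKM in the SLS and 6.09, 10.3 and 8.50 FPKM in the LLS ovaries, with ZD3 and ZD7 nearly equal. ALDH1A1, a retinal dehydrogenase, went the other way at 1.70, 0.875 and 3.01 FPKM in the SLS and 7.88, 3.23 and 8.21 FPKM in the LLS ovaries. Its log2 difference was 1.36 (adjusted p = 0.999, limma). Haptoglobin (HP), a haemoglobin-binding protein, was at 15.9, 13.6 and 34.2 FPKM in the SLS and 8.98, 6.89 and 0.312 FPKM in the LLS ovaries, with ZD8 far below the rest, and its log2 difference of -2.13 was -1.21 without ZD8. LHX2 was at 0 in every ovary, and PKHD1L1, TBX18, LGR5 and HAS1 stayed under 1 FPKM in all.

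**Figure D3:**
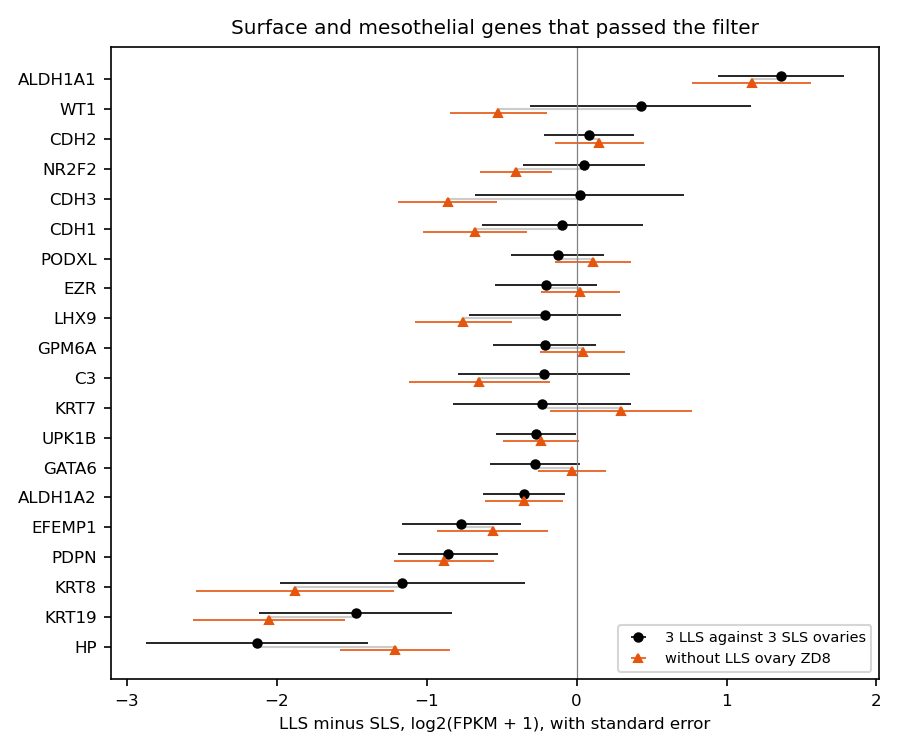
Difference of log2(FPKM + 1), LLS minus SLS, with its standard error, for WT1, KRT7 and the 18 other surface genes that entered the fit, with all 6 ovaries (circles) and without ZD8 (triangles). WT1 moves from 0.43 to -0.52 and KRT7 from -0.23 to 0.29 when ZD8 is left out. Of the 18, EZR, PODXL and GPM6A turn positive and NR2F2 and CDH3 negative, and the other 13 surface genes keep their sign.

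The chosen genes were also set beside KRT7, the keratin among the members. The ratio of ANXA8 to KRT7 was 1.21, 0.936 and 1.23 in the SLS and 0.224, 0.0397 and 0.655 in the LLS ovaries. That of PRG4 to KRT7 was 0.273, 0.564 and 0.667 in the SLS and 0.0916, 0.0197 and 0.160 in the LLS ovaries. Both ratios were lower in every LLS ovary, and the choice of PRG4 and ANXA8 bears on them.

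The relatives of the chosen genes were at very different levels. Of 7 other transglutaminase genes 6 have a row and 3 entered the fit, with none called, while TGM6 and TGM7 stayed under 1 FPKM. TGM2, the widely expressed tissue transglutaminase, was at 75.5 FPKM in ZD8 and at 106 to 163 FPKM in the others. TGM5 was at 11.9, 10.3 and 11.5 FPKM in the SLS and 16.1, 18.4 and 0.127 FPKM in the LLS ovaries, with ZD8 far below the rest. F13A1, the A subunit of coagulation factor XIII, was at 5.52, 2.77 and 4.75 FPKM in the SLS and 1.0, 1.23 and 3.98 FPKM in the LLS ovaries. Of 11 other annexin genes 7 entered the fit, with none called, while ANXA9, ANXA10 and ANXA13 stayed under 1 FPKM. ANXA2 was at 96.9 to 660 FPKM. ANXA5 was lower in every LLS ovary, at 187 to 216 FPKM in SLS and 95.9 to 151 FPKM in LLS ovaries, as were 389 of the 12260 genes (3.17%). ANXA1 went the other way, with a mean of 106 FPKM in SLS and 229 FPKM in LLS ovaries. Its log2 difference was 0.62, and 1.61 without ZD8, where it was lowest at 37.7 FPKM. It was higher in ZD5 and ZD7 than in every SLS ovary, as were 912 of the 12260 genes (7.44%).

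Of 4 other uroplakin genes only UPK1B, at 2.18 to 3.45 FPKM, entered the fit, and the others stayed under 1 FPKM. Of 13 genes of lubrication and hyaluronan, which act beside PRG4, 6 entered the fit and none was called. CD44, the hyaluronan receptor to which lubricin also binds, was at 19.1, 18.5 and 15.1 FPKM in the SLS and 12.3, 15.0 and 4.27 FPKM in the LLS ovaries. HAS3, a hyaluronan synthase, was at 2.80, 2.03 and 2.0 FPKM in the SLS and 7.16, 5.36 and 4.36 FPKM in the LLS ovaries, with a log2 difference of 1.0 (adjusted p = 0.999, limma). Of 9 partners and targets of WT1 in the gonad 8 entered the fit, none was called, and their median difference was 0.12, or -0.17 without ZD8.

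TGM3 is otherwise known from stratified epithelium, and the markers of that tissue did not move alike. Of 15 such genes 13 have a row, and PERP and KRT10 entered the fit, with neither called. PERP, a protein of cell junctions, was at 6.26, 7.91 and 13.7 FPKM in the SLS and 85.2, 21.6 and 6.48 FPKM in the LLS ovaries, and KRT10, a keratin of the upper layers, at 2.13, 2.21 and 3.43 FPKM in the SLS and 5.26, 5.76 and 0.967 FPKM in the LLS ovaries. Both were higher in ZD5 and ZD7 than in every SLS ovary, as were 912 of the 12260 genes (7.44%). KRT5, a keratin of the basal layer, was at most 0.0853 FPKM in 5 ovaries and at 1.18 FPKM in ZD8. TP63, a transcription factor of the same layer, was at most 0.169 FPKM in those 5 and at 1.12 FPKM in ZD8. TGM3 was lowest in ZD8, on 3 reads, so its order was not that of KRT5 and TP63. Other genes of the list were split. SFN and DSG3 were highest in ZD8, as KRT5 and TP63 were. KRT10 and TGM1, at 0.967 and 0.0540 FPKM in ZD8, were lowest there as TGM3 was, but highest in the LLS ovaries ZD7 and ZD5. Of 11 genes of tubal and rete epithelium 9 have a row and 2 entered the fit. EPCAM, an adhesion molecule of such epithelium that mesothelium lacks, was at 0.312, 0.339 and 1.28 FPKM in the SLS and 27.8, 9.73 and 2.31 FPKM in the LLS ovaries. It was higher in every LLS ovary, as were 239 of the 12260 genes (1.95%). Its log2 difference was 2.66 with all ovaries (adjusted p = 0.999, limma). Without ZD8 it was 3.47 (adjusted p = 0.0236, limma), where the fit called 21 of 12260 genes. EPCAM did not stand for its list. SOX17, also in the fit, had a log2 difference of -0.21, and -0.17 without ZD8. Outside the fit, OVGP1, FOXJ1, MUC1, CLDN3 and CLDN4 had positive differences with all ovaries and negative ones without ZD8, while EHF stayed positive.

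The genes most like PRG4 were sought among the genes in the fit, by the root mean square difference of their centred log2(FPKM + 1) profiles over the 6 ovaries. The 5 closest were LOC100158117 (a histone H4 gene) at 0.19, RTN4RL2 at 0.23, LCN2 and RSAD2 at 0.25 and CDK18 at 0.28, where the profile of PRG4 itself had a root mean square of 0.73. LCN2, which encodes the iron-siderophore binding protein lipocalin 2, was at 46.1, 34.3 and 86.1 FPKM in the SLS and 19.2, 15.6 and 16.3 FPKM in the LLS ovaries. Among the members ANXA8 was closest to PRG4, at 0.43, with the same rank in 4 of the 6 ovaries. Both were chosen as lower in every LLS ovary, and this choice bears on their likeness. The 5 genes closest to WT1, a search added after the values were seen, were SHMT1 at 0.08, JCAD, BMF and LMCD1 at 0.12 and KLF15 at 0.13, against 1.03 for WT1 itself. These values describe likeness in 6 libraries and carry no test.

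**Figure D4:**
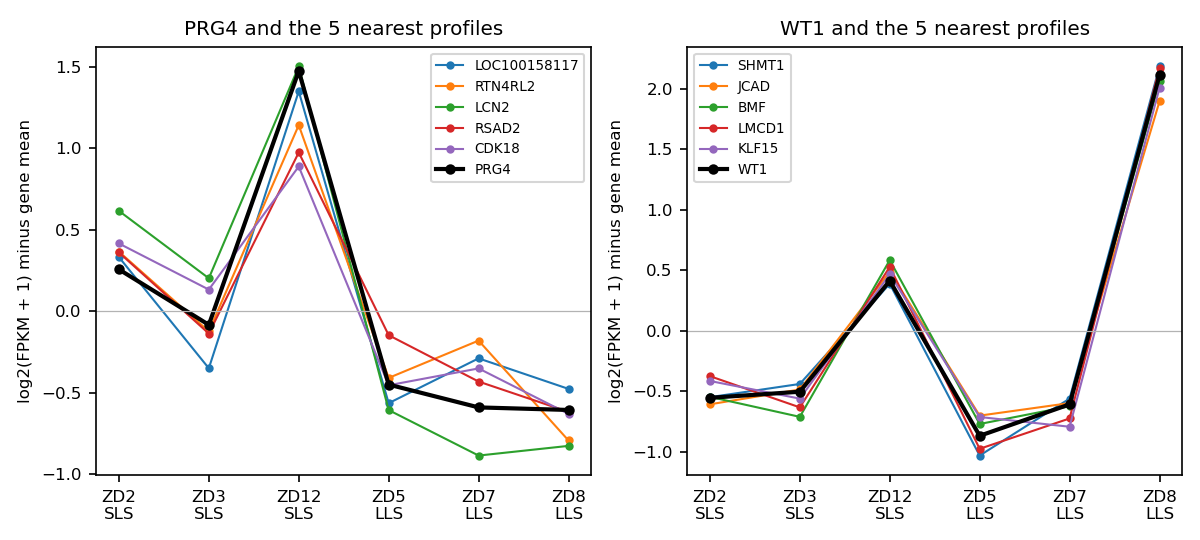
Centred log2(FPKM + 1) profiles over the 6 ovaries of PRG4 and of WT1, each with the 5 genes of most similar profile, where lines join the ovaries only to guide the eye. The PRG4 profiles peak in ZD12 and each has its lowest value in an LLS ovary, and the WT1 profiles peak in ZD8.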

How the data were processed

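Ovary RNA of 3 SLS and 3 LLS sows was sequenced after removal of ribosomal RNA. Per the study's methods, reads were trimmed by NGSQCToolkit and aligned by HISAT2 to Sscrofa11.1, and the authors deposited the result as FPKM values per gene. The program that counted reads is not given in the sources used here. Groups follow the labels. The small RNA libraries were not used here. All 6 columns of gene values were used.

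Reads were recovered from the FPKM values with the longest RefSeq transcript (Annotation Release 106). All values came out whole, within 0.001 of a read, for 23477 of 23546 genes (99.7%). Intervals are 95% exact Poisson intervals and the floor was 3 reads. Genes with at least 1 FPKM in at least 3 libraries (12260 genes) were compared by limma 3.58.1 in R 4.3.3, with a variance trend on log2(FPKM + 1). Calls needed a log2 difference over 1 in size together with a p, adjusted after Benjamini and Hochberg, under 0.05. The exact permutation test of single markers was two-sided. The fit was tested on simulated data, which held no ovary that stood apart as ZD8 did. Named were the members, up to 4 genes of highest level per list, genes past the threshold and the 5 profiles most like PRG4. The same search for MSLN could not be applied. Other named genes (LOC100524016, the profiles like WT1, genes singled out for their order, and overlapping genes) were chosen after their values were seen. Members, lists and alternatives were chosen with earlier results of these data known. Alternatives covered the pseudocount, the filter, the scaling, array weights, the variance trend, the fold threshold and leaving out each ovary. Promoter windows were read from the RefSeq Sscrofa11.1 genome.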

Additional observations from a re-analysis of the deposited data

How the results depend on the processing

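The count of genes called was 0 with all ovaries and rose to 13 with limma's array weights, and it was between 0 and 21 when 1 ovary was left out, with 21 reached only without ZD8. Among the fixed lists 0 genes were called, 1 with array weights, and 0 to 1 when 1 ovary was left out (EPCAM without ZD8). The mesothelial markers gave 0 calls under every alternative run. As differences of log2(FPKM + 1), KRT7 turned from -0.23 to 0.13 without ZD12 and to 0.29 without ZD8 (-0.73 to 0.29 with any 1 ovary left out), LRRN4 from -0.013 to 0.0067 without ZD12 (leave-out range -0.023 to 0.0067), BNC1 from 0.25 to -0.19 with array weights and -0.23 without ZD8 (leave-out range -0.23 to 0.55), and WT1 from 0.43 to -0.60 with array weights and -0.52 without ZD8 (leave-out range -0.52 to 0.97). The cause was not tested. PRG4, ANXA8 and TGM3 kept their direction under every alternative run, at -2.55 to -0.64, -2.74 to -1.23 and -2.77 to -0.89, where the choice of these genes fixes the direction. The largest change of each came with 0.1 in place of 1 added to the FPKM, which is another scale. On TPM, also another scale, they were at -1.72, -2.21 and -1.65. Depth limits UPK3B, LRRN4 and CALB2, with at most 35 reads in any library.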
